A study of Mus musculus with 11 samples.

Results

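Macrophages and other blood cells are recognized by genes that they express strongly, and 10 such genes were followed here across OvTrpMyc cell lines: Ptprc, Adgre1, Csf1r, Mrc1, Cd14, C1qa, Lyz2, Cd68, Cd74, and Hbb-bs. They were chosen by name, as genes of the blood lineage, out of 28284 genes in the count table, and all 10 were found in it. The table holds polyA RNA sequencing of 11 lines from 7 mice, with 1 library per line. Right ovaries (ROV) of mice F318, F319, F326, F339, and F364 and left ovaries (LOV) of F318 and F364 gave the 7 ovary lines, the uterus of F319 and of F333 gave 2 lines, and tumors gave 1 line each, on the spleen in F326 and in the peritoneum in F361. There were thus 4 mice with a pair of lines. The labels call all 11 lines ovarian cancer, the uterus lines included.

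All lines share the genotype Ovgp1-Trp53-R270H-Myc, a transgene placed at the Trp53 locus that expresses dominant-negative p53 and Myc from the Ovgp1 promoter, which is active in secretory cells of the fallopian tube. By the study's methods, the F361 peritoneal tumor line no longer expressed the mutant p53 copy. The mice were female and heterozygous on a C57BL/6 background, no line was treated, and no line without the transgene was compared. The cells were minced tissue put into culture and passaged in RPMI 1640, not single clones. Whether other cells of the tissue were carried along was not tested. The age of each donor mouse was not given in the labels. Library numbers, S1 to S11, stand in the sample descriptions, and nothing there says what they number. Library S1 is F364 ROV, S2 F326 splenic tumor, S3 F364 LOV, S4 F326 ROV, S5 F361 peritoneal tumor, S6 F319 ROV, and S7 F318 ROV. Library S8 is F339 ROV, S9 F318 LOV, S10 F319 uterus, and S11 F333 uterus, so both uterus lines lie in the second set. The sets were already known from earlier results of these data to differ in muscle and Y-linked genes.

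Leukocytes descend from blood stem cells and carry the phosphatase CD45, the product of Ptprc, on their surface. Tissue macrophages depend on the receptor CSF1R for survival, take up debris through receptors such as MRC1, and make lysozyme and the C1q proteins that start the classical complement cascade. Red cells of the adult mouse hold hemoglobin, built of alpha and beta globin chains, and lose their nucleus but keep some globin mRNA as they enter the blood.

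The library totals ran from 13580525 to 27044598 counts. Levels are given in CPM, counts divided by the library total and scaled to 1000000, and 3 counts, the least taken as detected, correspond to 0.111 to 0.221 CPM. Intervals on single libraries are Wilson or exact intervals at 95% confidence that cover counting error only. Sets were compared with the edgeR quasi-likelihood test after TMM normalization, and a gene was called at a Benjamini-Hochberg adjusted p under 0.05 over all genes tested. Each line is 1 library, and lines of 1 mouse are not independent, so the spread is that between lines. A lower level in such bulk RNA can come from fewer cells of a type or from less RNA per cell, which cannot be told apart.

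In libraries S1 to S7 all 10 genes reached 3 counts in every library. In S8 to S11, 9 reached it in F339 ROV, 7 in F318 LOV, 10 in F319 uterus, and 8 in F333 uterus. Summed over the 10 genes, the level was 109.5 to 703.8 CPM in S1 to S7 and 17.5 to 33.1 CPM in S8 to S11. Without Hbb-bs, which made up 36.1% to 80.7% of the sum in S1 to S7, it was 70.0 to 150.5 CPM against 12.0 to 24.2 CPM. The sums of the sets did not overlap in either form. Of the 10 genes, 8 were called higher in S1 to S7 than in S8 to S11, Cd68 and Cd14 did not pass the test, and none was called lower. Over the table, 29.9% of the 15954 genes tested were called higher and 28.6% lower in S1 to S7. The fitted log2 fold changes of the 10 genes had a median of 3.86, beside -0.03 over all genes tested. With library totals alone in place of TMM, the median over all genes was -0.40 and 38.1% rather than 51.1% of the called genes were higher, and the same 8 genes were called.

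**Figure D1:**
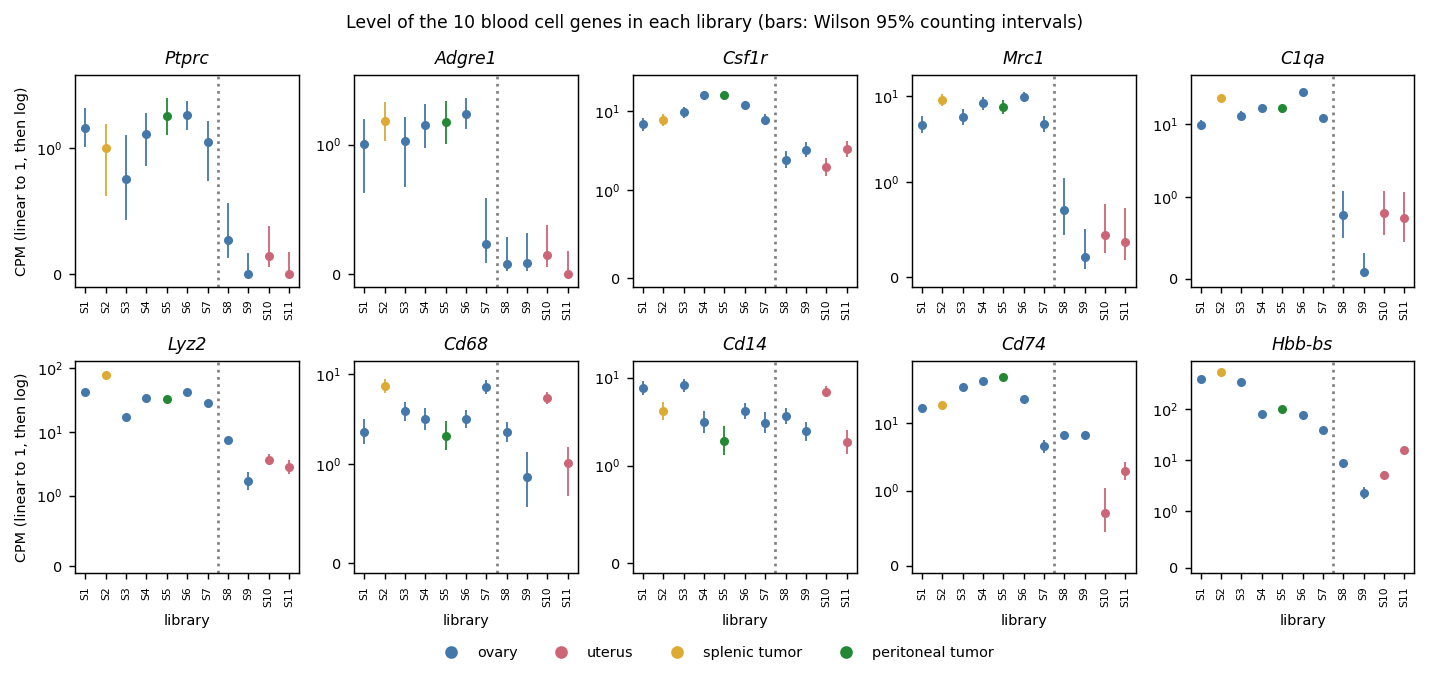
Level of each gene in each of the 11 libraries, in CPM on an axis that is linear up to 1 and logarithmic above it, with Wilson 95% counting intervals, colors for the organ, and a dotted line between S7 and S8. Ptprc, Adgre1, Csf1r, Mrc1, C1qa, Lyz2, and Hbb-bs have every point of S1 to S7 above every point of S8 to S11, while the points of Cd68, Cd14, and Cd74 overlap.

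The filter on low counts kept a gene that reached 0.571 CPM in at least 4 libraries. Cd68, Csf1r, Lyz2, Cd14, Cd74, and Hbb-bs reached that level in all of S8 to S11, C1qa in 3 of those libraries, Mrc1 in 1, and Ptprc and Adgre1 in none. These last 4 genes were therefore tested because of their level in S1 to S7, and the count of 8 and the p-values of these 4 genes from that fit cannot stand as support for a difference. The same holds for the longer lists, whose genes near the limit of detection in S8 to S11 were tested only if high in S1 to S7. With no filter on low counts, which does not choose genes by level, the same 8 of the 10 genes were called, beside 4933 genes higher and 4646 lower of 28284 tested. The edgeR adjusted p without the filter was 0.00227 for Ptprc, 0.000918 for Adgre1, 2.26e-05 for Mrc1, and 2.60e-05 for C1qa.

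Ptprc was the weakest member for its length, and was at 0.759 CPM at the lowest (F364 LOV), 1.34 CPM at the median, and 1.97 CPM at the highest (F319 ROV) in S1 to S7. It was at 0.274 CPM in F339 ROV and 0.148 CPM in F319 uterus, with 7 and 4 counts, and had no count in F318 LOV and F333 uterus, where 3 counts, the limit taken for a count of 0, are 0.131 and 0.139 CPM and the Wilson upper limits are 0.168 and 0.178 CPM. Every library of S8 to S11 was below the lowest of S1 to S7, with a log2 fold change of 3.98 ± 0.79 (SE, n = 7 and 4).

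Adgre1 encodes F4/80, an adhesion receptor by which mouse macrophages are recognized. It was at 0.228 CPM in F318 ROV, on 4 counts, and at a median of 1.47 CPM and a highest level of 1.84 CPM (F319 ROV) in S1 to S7. The 4 libraries of the second set had 2, 2, 4, and 0 counts, or 0.0784, 0.0873, 0.148, and 0 CPM. F318 ROV lay apart from the other 6 libraries of its set and, by its counting interval of 0.0888 to 0.587 CPM, not apart from F319 uterus, with an interval of 0.0575 to 0.380 CPM. The log2 fold change between the sets was 4.26 ± 0.74 (SE, n = 7 and 4).

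Mrc1 encodes the mannose receptor CD206 of tissue macrophages, which binds sugars of microbes and of worn glycoproteins. Its level in S1 to S7 was 4.69 CPM (F364 ROV) to 9.85 CPM (F319 ROV), with a median of 7.51 CPM, and it varied least of the 10 genes within that set, with a coefficient of variation of 29.1%. It was at 0.706 CPM in F339 ROV, 0.218 CPM in F318 LOV, 0.444 CPM in F319 uterus, and 0.371 CPM in F333 uterus. The lowest library of S1 to S7 stood well above the highest of S8 to S11. Its log2 fold change was 4.40 ± 0.44 (SE, n = 7 and 4).

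C1qa encodes the A chain of C1q and had the largest fold change of the macrophage genes among the 10. It was at 9.70 CPM (F364 ROV), 16.4 CPM, and 27.6 CPM (F319 ROV) at the lowest, median, and highest of S1 to S7. From S8 to S11 the levels were 0.784, 0.0873, 0.813, and 0.743 CPM, in library order, on 20, 2, 22, and 16 counts. The log2 fold change was 5.15 ± 0.57 (SE, n = 7 and 4). C1qb and C1qc, the other two chains, showed the same separation, with C1qb at 8.79 to 20.1 CPM against 0.222 to 0.392 CPM and C1qc at 6.85 to 17.8 CPM against 0.0873 to 0.666 CPM. Their log2 fold changes were 5.87 ± 0.39 and 5.25 ± 0.55 (SE). The ratio of C1qa to C1qb stayed between 0.841 and 1.55 within S1 to S7. In S8 to S11 it ran from 0.333 to 3.67, where C1qb had 6 to 10 counts.

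Lyz2 encodes lysozyme M, an enzyme against bacterial walls made by macrophages and neutrophils. It was at 17.0 CPM in F364 LOV, at a median of 34.0 CPM, and at 78.0 CPM in the F326 splenic tumor line within S1 to S7. It was at 7.37 CPM in F339 ROV, 1.70 CPM in F318 LOV, 3.66 CPM in F319 uterus, and 2.79 CPM in F333 uterus. The groups did not overlap, and F339 ROV was the nearest to the first set. Between the sets the log2 fold change was 3.74 ± 0.51 (SE, n = 7 and 4, adjusted p = 0.000147).

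Macrophage genes are commonly driven by PU.1, the product of Spi1, an ETS factor that binds around the letters GGAA. RefSeq windows for GRCm38.p6 were at hand for Mrc1, Lyz2, Ptprc, Cd68, and Hbb-bs, and are shown for Mrc1 and Lyz2 because both genes differed between the sets and hold GGAAGT on one strand, read as ACTTCC in these windows. Each line gives the 250 bases before the start of the gene, 5′ to 3′ on the strand of the gene, with the matched letters in capitals. The motif was picked after the sequences were read.
Mrc1, plus strand, chr2:14229164-14229413: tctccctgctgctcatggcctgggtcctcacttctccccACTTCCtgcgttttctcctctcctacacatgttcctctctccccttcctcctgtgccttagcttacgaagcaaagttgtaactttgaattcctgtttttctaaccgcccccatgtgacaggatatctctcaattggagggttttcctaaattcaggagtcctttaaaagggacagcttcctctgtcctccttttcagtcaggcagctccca
Lyz2, minus strand, chr10:117282273-117282522: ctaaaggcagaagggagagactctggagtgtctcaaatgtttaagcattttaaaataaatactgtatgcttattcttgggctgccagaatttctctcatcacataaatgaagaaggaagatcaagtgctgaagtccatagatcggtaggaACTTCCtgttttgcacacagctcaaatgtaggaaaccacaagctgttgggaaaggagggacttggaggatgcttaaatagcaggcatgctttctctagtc
Searched on both strands, GGAAGT lies in the windows of 3 of the 5 genes, Ptprc being the other one, and in 19.7% of all 32851 promoter windows of this length. A match is only a run of letters, and binding was not measured here.

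Spi1 itself was at 2.17 to 3.83 CPM in S1 to S7 and at 0 to 0.186 CPM in S8 to S11, with no overlap. Its fitted log2 fold change was 5.16 ± 0.66 (SE), and it was tested because of its level in S1 to S7, since no library of S8 to S11 reached the 0.571 CPM of the filter.

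Csf1r encodes the receptor for the growth factors CSF1 and IL-34. It was at 6.85 CPM (F364 ROV), 9.68 CPM, and 15.98 CPM (F361 peritoneal tumor) at the lowest, median, and highest of S1 to S7. In S8 to S11 it was at 2.43, 3.27, 1.96, and 3.30 CPM in library order, each well over the 3 counts taken as detected. The sets did not overlap, and the log2 fold change of 2.36 ± 0.37 (SE, n = 7 and 4, adjusted p = 0.000301) was the lowest of the 8 genes called. In S8 to S11 Csf1r stood at 2.41 to 37.5 times the level of C1qa, against 0.342 to 0.973 times in S1 to S7. The highest of these ratios is that of F318 LOV, where C1qa had 2 counts and was not detected, and the other three libraries of S8 to S11 were at 2.41 to 4.44 times. The gene overlaps Hmgxb3 on the opposite strand, and whether reads were counted by strand is not given in the sources used here.

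The pathway of Csf1r was read from 12 genes, all tested, of which 5 were called higher and 3 lower in S1 to S7. Over all genes tested 29.9% were higher and 28.6% lower, and nothing particular to the pathway is read from its counts. The ligand Csf1 went the other way from its receptor, at 31.5 to 375.9 CPM in S1 to S7 and 522.7 to 772.9 CPM in S8 to S11, with a log2 fold change of -1.93 ± 0.56 (SE, adjusted p = 0.0111). Among the genes called higher besides Csf1r were Spi1, the phosphatase gene Inpp5d, and the transcription factor gene Mitf, at log2 fold changes of 5.16, 4.09, and 1.72. Sos1 and Cbl, which signal below many receptors, were lower. These calls held with library totals alone, where Grb2 was called lower as well, and with upper quartile scaling.

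Cd14 encodes the co-receptor that hands bacterial lipopolysaccharide to Toll-like receptor 4, and it did not follow the library number. Its level was 1.91 CPM (F361 peritoneal tumor) to 8.16 CPM (F364 LOV) in S1 to S7, with a median of 4.16 CPM. The second set had 3.65, 2.44, 6.95, and 1.86 CPM in library order. F319 uterus had the third highest level of the 11 lines. Cd14 had a log2 fold change of 0.73 ± 0.48 (SE, n = 7 and 4, adjusted p = 0.212), with a 95% interval of -0.32 to 1.77. Of 11 genes of the Toll-like receptor 4 pathway, 10 were tested, 1 was called higher (Lbp) and 3 lower (Tlr4, Ly96, and Irak4) in S1 to S7, beside 29.9% and 28.6% over all genes tested. With library totals alone Lbp lost its call, Myd88 and Ticam1 were called lower, and 5 genes of the pathway were lower in all. Tlr4 was at 1.602 to 10.7 CPM against 12.1 to 51.8 CPM.

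Cd68 encodes a lysosomal glycoprotein that is abundant in macrophages but not limited to them. It was at 2.06 CPM (F361 peritoneal tumor), 3.20 CPM, and 7.40 CPM (F326 splenic tumor) at the lowest, median, and highest of S1 to S7, and at 2.27, 0.873, 5.47, and 1.02 CPM in S8 to S11. F319 uterus exceeded 5 of the 7 libraries of S1 to S7. The log2 fold change was 1.17 ± 0.55 (SE, n = 7 and 4), with a 95% interval of -0.02 to 2.36 and an adjusted p of 0.0841. DESeq2 called it (adjusted p = 0.0391), and so did edgeR without F319 uterus (log2 fold change 1.91, adjusted p = 0.0110). Of the 12 genes of a lysosome list, which also holds Cd68, 1 was called higher and 5 lower, and Ctsd, encoding cathepsin D, was the higher one. The shares over all genes tested were 29.9% and 28.6%, and Ctsz, one of those lower, lost its call with upper quartile scaling.

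Cd74 encodes the invariant chain that guides class II molecules to the compartment where antigen is loaded. In S1 to S7 its level was 4.51 CPM in F318 ROV, 22.4 CPM at the median, and 48.2 CPM in the F361 peritoneal tumor line. Its 4 levels from S8 to S11 were 6.63, 6.59, 0.703, and 1.95 CPM. F318 ROV lay below F339 ROV and F318 LOV, so the sets overlapped, although the log2 fold change of 3.17 ± 0.76 (SE, n = 7 and 4, adjusted p = 0.00392) passed the test. Of 7 genes of class II antigen presentation, 6 were tested, 4 were called higher and none lower, beside 29.9% and 28.6% of all genes tested, and H2-DMa made 5 with upper quartile scaling. H2-Ab1, a class II chain, was at 2.85 to 26.1 CPM against 0.0873 to 0.836 CPM, and Ciita, the master regulator of the class II genes, had no count in S8 to S11.

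Hbb-bs encodes an adult beta globin chain and was the only red cell gene among the 10. It was at 389.5 CPM in F364 ROV, 553.3 CPM in the F326 splenic tumor line, and 344.7 CPM in F364 LOV, which are libraries S1 to S3. It was at 82.1 CPM in F326 ROV, 102.1 CPM in the F361 peritoneal tumor line, 78.7 CPM in F319 ROV, and 39.6 CPM in F318 ROV, and at 8.94, 2.23, 5.14, and 16.2 CPM in S8 to S11. Libraries S1 to S3 were thus above S4 to S7, and those above S8 to S11. The log2 fold change of S1 to S7 over S8 to S11 was 5.19 ± 0.99 (SE, n = 7 and 4, adjusted p = 0.000978).

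Hbb-bs shares reads with Hbb-bt, the other adult beta globin gene. Their transcripts are identical at 92.7% of aligned bases, with 1 identical run of 430 bases, longer than the 150-base reads, so the split of reads between them is uncertain. Hbb-bt was at 10.05 to 180.7 CPM in S1 to S7 and 0.436 to 4.04 CPM in S8 to S11. Hba-a1 and Hba-a2, the alpha globin genes, were at 30.9 to 320.9 CPM and 10.8 to 141.3 CPM in S1 to S7, and at 1.27 to 7.89 CPM and 0.393 to 3.85 CPM in S8 to S11. Both beta genes together made up 47.3% to 67.2% of the 4 globin genes in every library.

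Red cell genes are known to be driven by GATA1, which binds around GATA, and KLF1, which binds around CACACCC. The window of Hbb-bs is printed to show 1 match to AGATAA and 1 to CACACCC, in capitals, over the 250 bases before its start in RefSeq for GRCm38.p6.
Hbb-bs, minus strand, chr7:103827929-103828178: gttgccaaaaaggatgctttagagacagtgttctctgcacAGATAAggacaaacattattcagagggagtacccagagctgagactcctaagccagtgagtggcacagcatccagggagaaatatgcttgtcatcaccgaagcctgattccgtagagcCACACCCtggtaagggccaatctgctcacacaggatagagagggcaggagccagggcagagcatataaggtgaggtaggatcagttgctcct
On either strand, AGATAA was in 9.99% and CACACCC in 6.93% of all 32851 windows of this length. Among the 5 genes with windows AGATAA lies in those of 2, Hbb-bs and the leukocyte gene Ptprc, and CACACCC in that of Hbb-bs alone. Both motifs were picked after the sequence was read.

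Compared per kilobase of annotated exon, Hbb-bs was the highest of the 10 genes in both sets, at a median of 133.0 CPM per kilobase in S1 to S7 and 9.17 in S8 to S11. Lyz2 with 25.8, C1qa with 15.8, and Cd74 with 13.3 CPM per kilobase followed in S1 to S7. In S8 to S11 C1qa dropped to the sixth place with 0.734 CPM per kilobase, behind Cd74 with 2.54, Lyz2 with 2.45, Cd14 with 1.76, and Cd68 with 1.31. Ptprc was the lowest in both sets, at 0.0729 and 0.00404 CPM per kilobase. The ranges of Lyz2, C1qa, and Cd74 within S1 to S7 overlapped, at 12.9 to 59.3, 9.33 to 26.5, and 2.69 to 28.7 CPM per kilobase, so their order there is not clear of the spread. In S8 to S11 the range of C1qa, 0.0839 to 0.782 CPM per kilobase, overlapped those of Cd74, from 0.418 to 3.95, and Cd68, from 0.694 to 4.35, and lay below those of Lyz2, from 1.29, and Cd14, from 1.07. The ranges of Cd74, Lyz2, Cd14, and Cd68 overlapped one another, so their order is not clear of the spread either.

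Every library of S1 to S7 was higher than every library of S8 to S11 for 7 of the 10 genes. The same was true of 17.1% of all genes tested. In a model with a term for each mouse, which rests on mice F318 and F319, each with 1 line in either set, 5 of the 10 genes were called: Ptprc, Mrc1, C1qa, Lyz2, and Hbb-bs. This fit used the same filter, so the calls of Ptprc, Mrc1, and C1qa in it are no support for a difference. Adgre1 (log2 fold change 2.92, adjusted p = 0.07003), Csf1r (2.17, adjusted p = 0.0514), and Cd74 (2.35, adjusted p = 0.329) did not pass that test. The model called 3028 genes in all, against 9337 without the mouse term.

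The organ differs between the sets, and the ovary lines alone were therefore compared, 5 in S1 to S7 with F339 ROV and F318 LOV. Here 7 of the 10 genes were called higher in S1 to S7, beside 22.1% of 16610 genes tested, and 8 showed no overlap, beside 22.9% of genes. The limit that the filter sets on Ptprc, Adgre1, Mrc1, and C1qa holds here too, and with no filter the same 7 were called, beside 3375 genes higher and 2903 lower of 26933 tested. Cd74 lost its call (log2 fold change 2.25 ± 0.83, SE, adjusted p = 0.0619), and Cd68 (1.65 ± 0.58, SE, adjusted p = 0.0540) and Cd14 (1.18 ± 0.60, SE, adjusted p = 0.148) did not pass. The other seven had log2 fold changes from 2.24 (Csf1r) to 5.51 (Hbb-bs). As alternatives, DESeq2 called 9 of the 10, Cd68 and Cd74 among them, and upper quartile scaling called 8, Cd68 among them. Without F318 LOV, which left F339 ROV alone in its set, 4 genes were called, and with other single lines left out 5 to 8.

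**Figure D2:**
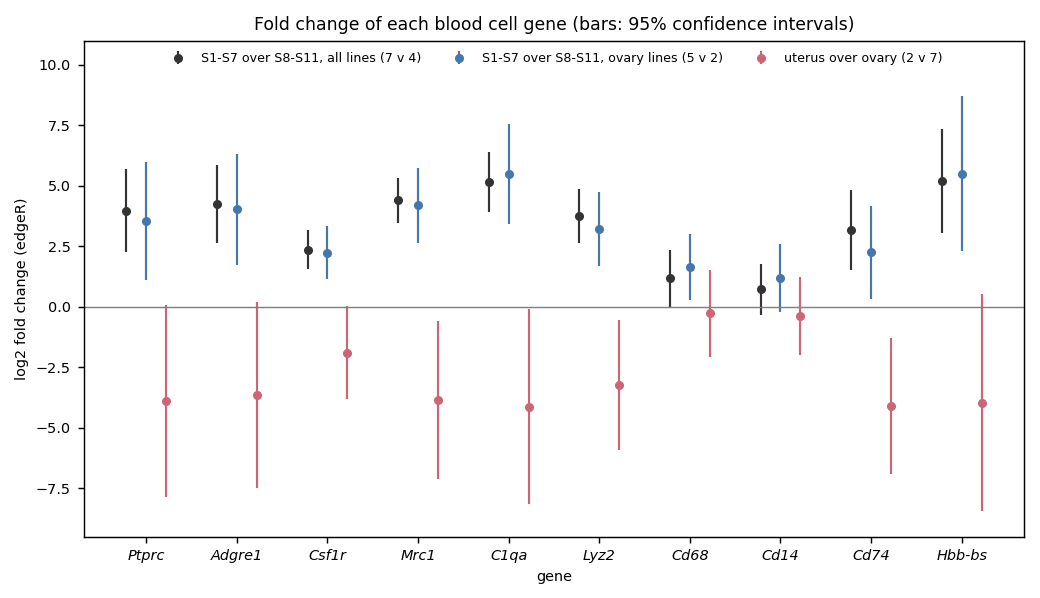
Log2 fold change of each gene from edgeR with its 95% confidence interval, for S1 to S7 over S8 to S11 in all 11 lines (black), the same in the 7 ovary lines (blue), and uterus over ovary (red). The black and blue points lie close together, with 5.15 and 5.49 for C1qa, and the red points lie below 0 with wide intervals.

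The 2 uterus lines were set against the 7 ovary lines to ask whether the organ goes with blood cell RNA. None of the 10 genes was called lower in the uterus lines, as was 0% of the 17446 genes tested, and 2308 genes had an unadjusted p under 0.05. DESeq2 called 1297 genes, 4 of the 10 among them, namely Lyz2, Mrc1, Cd74, and C1qa, all lower in the uterus lines. For Cd74 both uterus lines, at 0.703 and 1.95 CPM, were below all 7 ovary lines, of which the lowest was at 4.51 CPM. Such a separation, lower in uterus, held for 3% of genes, and Cd74 was the only one of the 10. Its log2 fold change was -4.09 ± 1.25 (SE, n = 2 and 7, adjusted p = 0.359).

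Both uterus lines lie in S8 to S11, and within that set they were compared with F339 ROV and F318 LOV. No gene was called (0% of 15566 tested), 522 had an unadjusted p under 0.05, and DESeq2 called 117, none of the 10. Ptprc and Adgre1 did not pass the filter. Cd74 had a log2 fold change of -2.26 ± 0.76 (SE, n = 2 and 2, adjusted p = 0.9998). Cd68, Cd14, C1qa, and Hbb-bs had log2 fold changes of 1.003, 0.50, 0.84, and 1.01, above 0, where the comparison over all libraries gave -0.28, -0.37, -4.13, and -3.97.

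Lines of the same mouse allow a comparison that holds the animal fixed. F318 ROV (S7) and F318 LOV (S9) are both ovary lines, and F319 ROV (S6) and F319 uterus (S10) are from 2 organs. C1qa was 139.9 times as high in F318 ROV as in F318 LOV (95% exact interval of the ratio 38.3 to 1163), on 214 against 2 counts. It was 33.9 times as high in F319 ROV as in F319 uterus (22.2 to 54.5). Mrc1 differed by 22.0 times in mouse F318 and by 22.2 times in mouse F319. Ptprc, with 20 counts in F318 ROV and none in F318 LOV, was at least 8.72-fold higher there, taking 3 counts as the floor of the library, while the exact 95% interval of the ratio reaches down to 6.46.

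The pairs also held genes that went the other way in 1 of the 2 mice. Cd68 and Cd14 were 1.72 and 1.67 times as high in F319 uterus as in F319 ROV, and Cd74 was 1.46 times as high in F318 LOV as in F318 ROV (1.11 to 1.94). In mouse F318, Cd68 was 8.24 times as high in F318 ROV as in F318 LOV (5.12 to 13.9), and Cd14 1.26 times (0.852 to 1.87). The pairs F364 ROV with F364 LOV and F326 splenic tumor with F326 ROV lie within S1 to S7. There, the ratios of C1qa were 0.744 and 1.39, those of Mrc1 0.815 and 1.08, and those of Lyz2 2.51 and 2.30. Hbb-bs was 6.74 times as high in the splenic tumor line as in F326 ROV (6.35 to 7.16), and 1.13 times as high in F364 ROV as in F364 LOV.

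**Figure D3:**
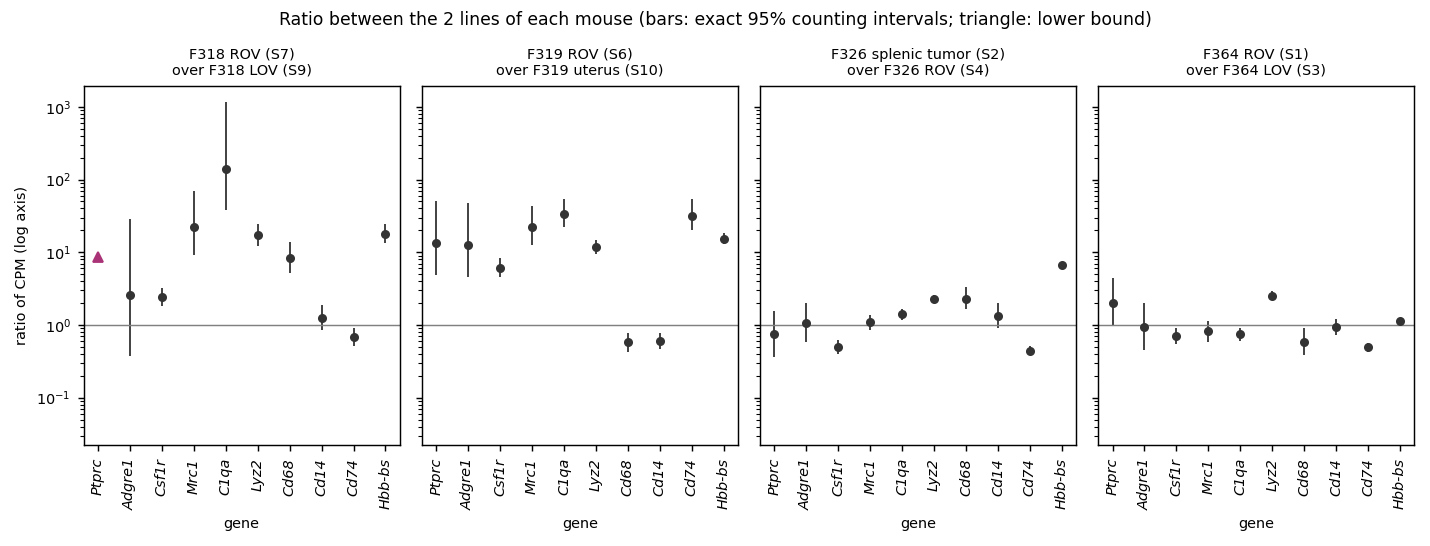
Ratio of the CPM of each gene between the 2 lines of mice F318, F319, F326, and F364, on a log axis, with exact 95% counting intervals, a line at 1, and a triangle for a lower bound. In the left pair of panels, where the lines lie in different sets of libraries, C1qa stands at 139.9 and 33.9, and in the right pair, where both lines lie in S1 to S7, at 1.39 and 0.744.

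The F326 splenic tumor line had the highest Cd68, Lyz2, and Hbb-bs of the 11 lines, and F319 ROV had the highest Ptprc, Adgre1, Mrc1, and C1qa. The F361 peritoneal tumor line had the highest Csf1r and Cd74, and F364 LOV the highest Cd14. These 2 tumor lines are single libraries and were not tested against the ovary lines. F318 LOV had the lowest level of Cd68, Lyz2, Mrc1, C1qa, and Hbb-bs, and shared the lowest level of Ptprc, with no count, with F333 uterus.

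A wider list of 26 macrophage and monocyte genes, which includes 7 of the 10, summed to 113.8 to 213.3 CPM in S1 to S7 and 15.8 to 30.1 CPM in S8 to S11. Of its 21 tested genes 17 were called higher, beside 29.9% of all genes tested, and none lower, beside 28.6%. Cd163, a hemoglobin scavenger receptor, was at 5.82 to 14.3 CPM against 0.0873 to 0.941 CPM. Mertk, a receptor for dying cells, did not separate the sets, at 3.02 to 8.33 CPM against 4.46 to 6.88 CPM. Of 14 genes shared by leukocytes, 11 were tested and 8 called higher (29.9% over all genes), with Laptm5 at 2.28 to 7.97 CPM against 0.0873 to 0.392 CPM. In both lists, genes such as C1qb and Laptm5 stayed under the filter in S8 to S11. They were tested because of their level in S1 to S7, so these counts of calls are no support for a difference. Cd53, in the leukocyte list, was highest in F318 LOV, at 9.95 CPM, where Ptprc had no count. Serping1, the inhibitor of C1, was higher with the C1q chains (log2 fold change 5.11 ± 0.55, SE), while C1ra and C1s1, the proteases of the complex, did not pass the test.

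Lists of other blood cells also varied within S1 to S7. Neutrophil genes, 11 in number, summed to 77.6 CPM in F364 ROV and 45.3 CPM in F364 LOV but to 1.202 CPM in F326 ROV and 2.80 CPM in the F361 line, and were at 1.49 to 7.10 CPM in S8 to S11. S100a9, a calcium-binding protein of neutrophils, was the highest of that list in F364 ROV, at 41.8 CPM. In F318 ROV, S100a8 was above it, at 18.6 against 2.63 CPM. Of 6 tested neutrophil genes 5 were called higher in S1 to S7, beside 29.9% of all genes tested, and 4 with library totals alone, where S100a8 lost its call. The limit that the filter sets on such list genes holds for this count too. Mast cell genes summed to 21.9 CPM in F326 ROV, 15.2 CPM in the F361 line, and 15.4 CPM in F319 ROV, to 2.97 to 8.54 CPM in the other four libraries of S1 to S7, and to 0.0873 to 1.21 CPM in S8 to S11. All 4 tested mast cell genes were called higher (29.9% over all genes), with Tpsb2, a tryptase, at a log2 fold change of 5.82 ± 1.15 (SE). Tpsb2 was at 0 to 0.371 CPM in S8 to S11, and all 4 genes were under the 0.571 CPM of the filter there. These genes were thus tested because of their level in S1 to S7, and their count is no support for a difference.

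Ighm, the heavy chain gene of IgM, was at 61.6 CPM in F326 ROV and 72.2 CPM in the F361 line, and at 0.0784 to 4.44 CPM in the other nine. The B cell genes Ms4a1 and Cr2 did not reach 3 counts in any library. Genes of T and natural killer cells summed to 1.01 to 3.24 CPM in S1 to S7 and 1.11 to 4.04 CPM in S8 to S11. Lck, a kinase of T cells, was at 0 to 0.571 CPM in S1 to S7 and 0.557 to 3.84 CPM in S8 to S11, with up to 98 counts there. Cd2, Cd3d, Cd3g, Cd8a, and Gzma did not reach 3 counts in any of the 11 libraries. Of 2 genes of this list that could be tested, Cd247 was called higher and Lck lower in S1 to S7, beside 29.9% and 28.6% of all genes tested. Of 8 dendritic cell genes only Zbtb46 was tested, and it did not pass, and in the platelet list only Pf4 of 3 tested genes was called, higher in S1 to S7, where 29.9% of all genes were higher. The platelet sums overlapped, at 5.51 to 15.0 CPM in S1 to S7 and 6.03 to 21.7 CPM in S8 to S11, and Itga2b and Gp1bb had log2 fold changes of -0.65 and -1.67 that did not pass.

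**Figure D4:**
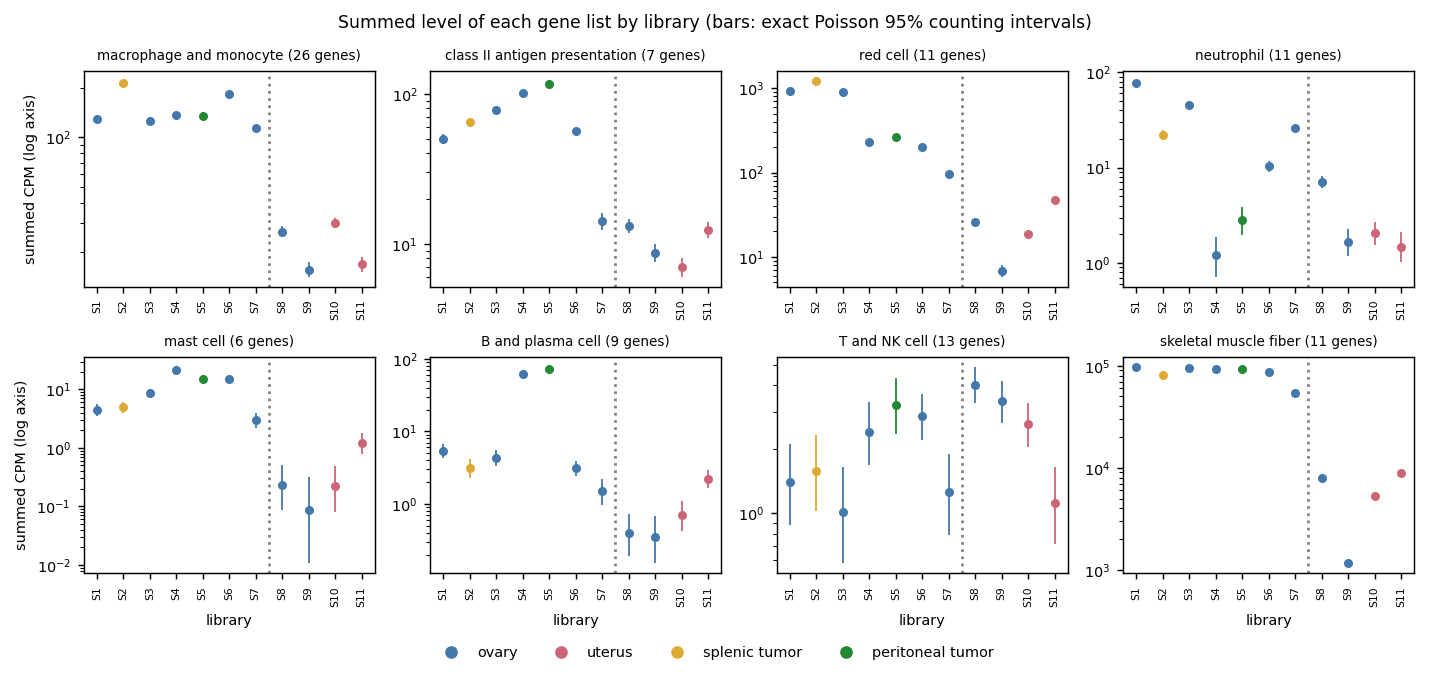
Summed CPM of 8 gene lists in each library on a log axis, with exact Poisson 95% counting intervals, colors for the organ, and a dotted line between S7 and S8. The macrophage sums lie at 113.8 to 213.3 CPM in S1 to S7, the red cell sums of S1 to S3 lie above those of S4 to S7, and the T and natural killer cell sums stay at or under 4.04 CPM throughout.

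Several lists of genes of other tissues, and a list of Y-linked genes, also differed between the sets. A list of 11 skeletal muscle fiber genes took 5.41% to 9.76% of all counts in S1 to S7 and 0.117% to 0.882% in S8 to S11, and 4 Y-linked genes summed to 127.8 to 173.8 CPM against 1.75 to 19.2 CPM. In the 2 sets all 11 muscle genes and all 4 Y-linked genes were called higher, as were 6 of 8 endothelial and all 5 tested adipocyte genes, beside 29.9% of all genes tested. The part of these lists in the results for the blood genes was not tested. The donor mice were female, and the source of the Y-linked RNA was not tested. The endothelial sums overlapped, at 174.5 to 489.8 CPM in S1 to S7 and 2.97 to 227.3 CPM in S8 to S11, with F339 ROV the highest of the latter. Epithelial genes, which the labelled cell type would carry, summed to 3.16 to 158.9 CPM in S1 to S7 and 10.1 to 43.3 CPM in S8 to S11, and 5 of 8 mesenchymal genes were lower in S1 to S7, beside 28.6% of all genes tested.

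Set against the muscle genes, the 3 C1q genes stood at 0.294 to 0.747 counts per 1000 muscle counts in S1 to S7 and 0.168 to 0.373 in S8 to S11. This ratio ranged over 4.44 times among the 11 libraries, where the C1q sum itself ranged over 149.9 times. The lowest C1q sum and the highest ratio of S8 to S11 were both those of F318 LOV. There C1qa, C1qb, and C1qc had only 2, 6, and 2 counts. F319 uterus, at 0.324, also lay above F364 ROV, at 0.294. The globin genes stood at 9.14 to 14.8 per 1000 muscle counts in S1 to S3 and at 1.69 to 3.69 in the other eight libraries. The 26 macrophage genes stood at 1.32 to 2.63 in S1 to S7 and at 3.37, 13.5, 5.75, and 1.92 in S8 to S11. Over the 11 libraries this ratio of the wider list ranged over 10.2 times, where its sum in CPM ranged over 13.5 times and the muscle sum over 83.4 times.

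**Figure D5:**
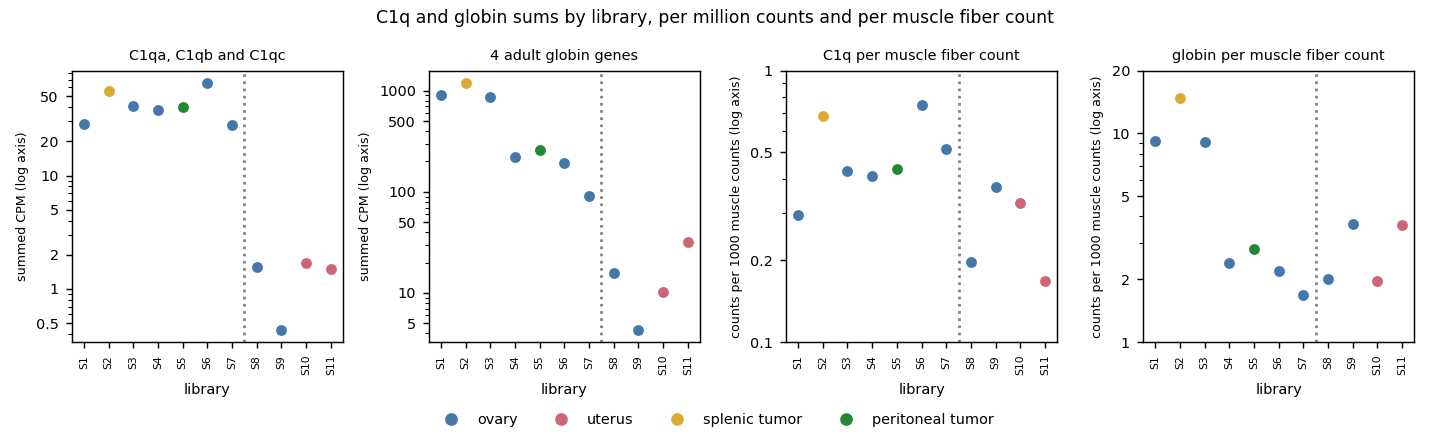
Sums of C1qa, C1qb, and C1qc and of the 4 adult globin genes by library, in CPM (left pair of panels) and per 1000 counts of the skeletal muscle fiber genes (right pair), on log axes, with colors for the organ. The C1q sum falls from 27.9 to 65.4 CPM in S1 to S7 to 0.436 to 1.70 CPM in S8 to S11, and per muscle count the sets overlap.

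The genes whose pattern was most like that of the members other than Hbb-bs were sought among 15944 genes, by Pearson r of log2(CPM + 1) over the 11 libraries with the mean z-score of those 9 genes. The 10 highest were Polr3gl (r = 0.987), Mettl22, C1qc (0.983), Ypel3, Apoe (0.982), 0610009O20Rik, Stard10, Rhbdd3, Ech1, and Etfdh (0.979). Of these, C1qc alone is in a blood cell list, and 1133 genes had r over 0.9. The libraries fall into 2 sets on this score, and within the 7 libraries of S1 to S7 r was 0.888 for C1qc, 0.702 for Apoe, and 0.833 for Polr3gl. These values describe the libraries and carry no test.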

How the data were processed

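The authors aligned paired-end 150-base reads to GRCm38 (mm10) with RNA STAR, removed duplicates with SAMtools RmDup, counted reads per gene with featureCounts on Ensembl 86, and deposited whole-number counts for 28284 genes in 11 lines, with no normalization. The tools' versions and the treatment of strand and of reads with several matches are not given in the sources used here. Removal of duplicates can lower the counts of highly expressed short genes, such as globins, more than others. From the deposited counts, CPM was computed by library total, and tests were made with edgeR 4.0.16 in R 4.3.3 (TMM, filterByExpr, quasi-likelihood, Benjamini-Hochberg), with DESeq2 1.42.0 as an alternative. Intervals and permutation tests used Python 3.11.15 and scipy 1.17.1. Simulated counts with 100 genes changed 4-fold and 100 changed 16-fold gave back 97% and 98% in the comparison of S1 to S7 with S8 to S11 (15954 genes) and 88% and 98% in that of uterus with ovary (17446 genes). The shares were 79% and 99% in the ovary lines alone (16610 genes) and 65% and 98% for uterus against ovary within S8 to S11 (15566 genes). The simulation gave every gene the same fixed dispersion and no difference between mice. These shares therefore do not measure the power of the tests at the spread between these lines. The pairing by mouse comes from the sample titles. Library totals ran from 13580525 to 27044598 counts, and precision at low counts is that of the counting intervals given.

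The 10 genes and the lists were chosen with earlier results of these data known. Of the lists' genes, those named are the highest or lowest of a list, those that passed a test, or those near the limit of detection. Exon lengths and overlaps are from GENCODE M21, promoter windows from RefSeq (GRCm38.p6). Genes of the lists that were not found in the table (Cd8b1, Ncr1, Ahsp, Gp6, and Acta1) were not analysed here, and some other genes counted in the lists are not reported here by name. The alternatives covered scaling, test, filter, muscle genes, the mouse term, and each line left out. Those for the ovary lines alone and for uterus against ovary within S8 to S11 were chosen after seeing the data.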

Additional observations from a re-analysis of the deposited data

Results flagged for a closer look

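The 10 genes were examined in 3 groups (S1 to S7, S8 to S11, and the ovary lines), which makes 30 tests of whether 1 line stands apart on the log2(CPM + 1) scale, and chance alone gives about 1 in 20. The gap to the nearest line was set against Dixon's critical value at 95%. Adgre1 in F318 ROV, at 0.228 CPM, lay below the other 6 libraries of S1 to S7, with a gap of 0.591 of the group's range. C1qa in F318 LOV, at 0.0873 CPM, lay below the other 3 libraries of S8 to S11, with a gap of 0.922 of the range. Both lines came from mouse F318, and both values rest on 4 counts or fewer.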

How the results depend on the processing

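For S1 to S7 against S8 to S11, the 8 called genes were 8 or 9 under every scaling, test, filter, and line left out. The exact two-sided permutation test gave 8 at an unadjusted p under 0.05 with lines of 1 mouse taken as independent, 7 of them at 0.00606, the smallest p that 7 against 4 libraries allow, and adds no support. The exceptions were the ovary lines alone, where edgeR called 7, and the mouse as a replicate block, with 5 genes and 3028 in the table. Adgre1, Csf1r, and Cd74 lost their calls under the block, and the cause was not tested. No gene with a call in that comparison changed direction. For uterus against ovary, DESeq2 called 4 of the 10 genes and 1297 in the table, no filter called 2 in the table, and single lines left out gave 0 to 1. Within S8 to S11, the log2 fold changes of Cd68, Cd14, C1qa, and Hbb-bs turned to 1.003, 0.50, 0.84, and 1.01, none called, and with single lines left out in all libraries those of Cd68 ran from -1.76 to 0.45 and of Cd14 from -1.45 to 0.25.

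Alternatives chosen after seeing the data follow. Among the ovary lines alone, DESeq2 called 9 of the 10 genes and upper quartile scaling 8. In the ovary lines, single lines left out gave 4 to 8 of the 10 genes and 2749 to 7205 in the table, the fewest without F318 LOV. Within S8 to S11, DESeq2 called 117 genes and no filter 604, none of the 10, and single lines left out moved uncalled log2 fold changes across 0: Cd68 -0.51 to 1.80, Csf1r -0.63 to 0.31, Lyz2 -1.16 to 0.89, Cd14 -0.60 to 1.11, Mrc1 -0.75 to 0.86, and Hbb-bs -0.19 to 2.29. With a floor of 10 counts in place of 3, 9 or 10 of the genes were detected in S1 to S7 and 6 to 8 in S8 to S11. TMM-scaled totals or totals without muscle genes left the summed levels of the sets apart. With a pseudocount of 0.1, 5 of the 10 genes most like the members were shared. Counting error is large for Ptprc and Adgre1 in S8 to S11, with 7 counts at most, although those libraries hold 21542612 to 27044598 counts against 13580525 to 22333181 in S1 to S7.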
